A study of Mus musculus with 28 samples.

Results

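The genes described here are 44 mouse genes for the uptake, storage and oxidation of fatty acids. They were chosen by symbol as known parts of the pathway, and each symbol was matched to 1 Ensembl gene. All 44 were found among the 55416 genes of the count table of the Dnm2 cohort and among the 55359 genes of the table of the Bin1 cohort. All 44 passed the filter on low counts in the main fit of each cohort and in the joint fit. By role, 5 of the 44 act in uptake, 5 in activation to acyl-CoA, 7 in the carnitine shuttle and its control, 12 in mitochondrial beta-oxidation, 3 in the transfer of electrons from it, 3 in peroxisomal beta-oxidation, 4 as thioesterases or in uncoupling, and 5 in lipid droplets and lipolysis.

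The study measured polyadenylated RNA of the tibialis anterior (TA), a fast muscle of the lower leg, to ask how tamoxifen, a modulator of estrogen receptors, acts on muscle with a centronuclear myopathy. Mice were of the C57BL/6N strain and 8 weeks old, received tamoxifen in the diet or a placebo, and formed 7 groups of 4. The labels do not give their sex. The Dnm2 cohort of 16 mice held WT mice and mice with 1 Dnm2 S619L/+ allele, a knock-in of a point mutation in dynamin 2 (called Dnm2SL), each on placebo or tamoxifen. The Bin1 cohort of 12 mice held its own WT placebo mice and mice labelled Bin1 mck-/- (called Bin1KO), on placebo or tamoxifen. The deletion is named after the muscle creatine kinase (mck) promoter, which is active in muscle fibers, and this cohort had no WT mice on tamoxifen. The mice carry the replicate numbers of the labels, 1 to 4, and 5 to 8 for the WT mice of the Bin1 cohort. Libraries were made from 300 ng of RNA with 2 minutes of fragmentation in the Dnm2 cohort and from 350 ng with 8 minutes in the Bin1 cohort, so levels were compared within a cohort. The reads assigned to genes per library numbered 15.6 to 109.7 M (1e6) in the Dnm2 cohort and 24.7 to 35.1 M in the Bin1 cohort.

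As background, muscle takes fatty acids from the capillaries, where lipoprotein lipase frees them from triglyceride. Coenzyme A is attached to them, after which they are stored in droplets or passed by the carnitine shuttle into mitochondria, shortened step by step by beta-oxidation, and their electrons enter the respiratory chain through the electron transfer flavoprotein. Many of these genes are known targets of the PPAR and estrogen-related receptors.

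The label of the tissue was checked against markers. The 7 skeletal muscle fiber markers summed to 126337 ± 10077 CPM (reads per 1e6, scaled by TMM; mean ± SD, n = 4 mice here and throughout) in WT placebo mice of the Dnm2 cohort and to 136197 ± 9449 CPM in those of the Bin1 cohort, with Myh4 as the most abundant gene in the former and Acta1 in the latter, and none at 0. Bin1 was 549, 521, 533 and 556 CPM in the WT mice of its cohort, 62.1, 51.6, 52.2 and 58.8 CPM in Bin1KO placebo mice and 41.3, 36.1, 49.5 and 36.9 CPM in Bin1KO tamoxifen mice. No Bin1KO mouse reached a WT mouse (log2 fold change, log2FC, of −3.26, SE 0.13, edgeR p adjusted over all genes, called adjusted p, = 7.10e-10). Dnm2 was 63.1 ± 1.45 CPM in WT placebo and 67.6 ± 4.64 CPM in Dnm2SL placebo mice, and the groups overlapped (log2FC 0.10, adjusted p = 0.344).

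The WT placebo libraries of the Dnm2 cohort stood apart from the other 12 of their cohort. Their TMM factors were 0.812 to 0.8999, below the 0.963 to 1.16 that spanned the other groups, and genes of the mitochondrial DNA took 22.9 ± 2.56% of their reads. That share was 17.7 ± 0.9996% in WT tamoxifen, 14.9 ± 1.56% in Dnm2SL placebo and 15.2 ± 0.858% in Dnm2SL tamoxifen mice. Leaving out the mitochondrial DNA genes, with TMM factors computed anew, was no test of whether that share or those factors bear on the calls.

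Levels of different members can be compared only per length, as mean CPM per kilobase of exon. In WT placebo mice of the Dnm2 cohort the highest levels were those of Acadl at 262, Fabp3 at 236, and Acadvl at 218 CPM per kb, and the lowest that of Acot1 at 0.07603 CPM per kb.

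Summed over the 44 members, the level in the WT placebo mice of the Dnm2 cohort was 7778, 8283, 9150.0 and 8043 CPM, and in Dnm2SL placebo mice 6195, 6091, 6389.7 and 6052 CPM. On tamoxifen it was 5422, 5319.6, 5815 and 5978 CPM in WT mice and 5257, 5618, 5302 and 7055 CPM in Dnm2SL mice. Each of the 12 mice of these other groups lay below each WT placebo mouse, and Dnm2SL tamoxifen mouse 4 was the highest of the 12. In the Bin1 cohort the sum was 8013, 8369, 6895 and 7557 CPM in WT, 9018, 9179.5, 8539 and 7401 CPM in Bin1KO placebo and 7326, 7684, 6141 and 7541 CPM in Bin1KO tamoxifen mice, and these groups overlapped. In whole muscle, fewer cells of a type and less RNA per cell cannot be told apart.

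The disease effect in the Dnm2 cohort was read from Dnm2SL against WT placebo mice. Of the 44 members, 15 fell and 0 rose at an adjusted p under 0.05 in the edgeR test over all 15439 genes, where 9.81% of all genes were called lower and 12.1% higher. At an unadjusted p under 0.05 there were 23 members (52.3%, against 36.5% of all genes). DESeq2 called 19 lower, Abhd5, Cd36, Crat and Fabp3 in addition, and 0 higher (of all genes 10.4% and 12.7%). The median log2FC was −0.28 over the members and 0.02 over all genes, and 36 of 44 members lay below 0. These directions depended on the scaling: with library size alone, without TMM factors, the median of all genes moved by 0.26 and that of the members to −0.01, 13 of 44 members changed sign, and 7 members were called lower and 6 higher (Acaa1a, Acsl3, Etfb, Mlycd, Plin2 and Slc27a4), against 3.03% and 31.1% of all genes. Etfb was also called higher with only the groups compared (log2FC 0.56, adjusted p = 0.0455), and Acsl3 with replicate number as a block (log2FC 0.47, adjusted p = 0.0484). Relative to the median of all genes the members' median was −0.30 with TMM and −0.29 with library size alone. Scaling moves all genes about alike, so these 2 values could hardly differ and do not test the scaling.

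Markers of other cell types moved in the same mice. The 5 endothelial markers summed to 555, 432, 349 and 707 CPM in WT placebo and to 238, 185, 458 and 166 CPM in Dnm2SL placebo mice, so that Dnm2SL mouse 3 lay among the WT mice. Of these 5 markers, none at 0, Pecam1 (log2FC −0.92, adjusted p = 0.00677), Cdh5, the most abundant (log2FC −1.08, adjusted p = 0.0171), and Tek (log2FC −1.06, adjusted p = 0.0186) fell. Cdh5 was not called without Dnm2SL placebo mouse 2 (adjusted p = 0.0527), and Tek without Dnm2SL placebo mouse 2 or 4 or WT placebo mouse 4 (adjusted p = 0.0563, 0.0577 and 0.0567). Of the 7 fiber markers, the fast myosin genes Myh2 (log2FC −1.80, adjusted p = 0.00129) and Myh4 (log2FC −0.75, adjusted p = 0.03303) fell, the latter not without Dnm2SL placebo mouse 1, 2 or 4 or WT placebo mouse 1, 2 or 3 (adjusted p from 0.0548 to 0.105), and the list summed to 104080.0 ± 14823 CPM. Of the 6 slow fiber markers, 5 rose and Myl3 fell, with log2FCs from −1.95 to 3.31 (Tnni1), calls lost for Myl2 and Myh7 in 6 and 1 of the 16 fits that each left out 1 mouse. The list summed to 132 ± 38.4 CPM in WT placebo and 207 ± 115 CPM in Dnm2SL placebo mice, with Myl3 and Atp2a2 as its most abundant genes and none at 0. The part of these cells in the members' change was not tested.

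Tamoxifen in healthy muscle was read from WT tamoxifen against WT placebo mice. By edgeR 26 of the 44 members fell, against 11.9% of all genes called lower, and 1 rose, against 15.8% called higher. DESeq2 called 26 lower and 1 higher (of all genes 11.2% and 14.6%). The median log2FC was −0.48 over the members and −0.04 over all genes. Below 0 lay 39 of 44 members. Scaled by library size alone, the median of all genes moved by 0.27 and that of the members to −0.20, 5 of 44 members changed sign, and 17 were called lower and 1 higher, against 2.48% and 28.5% of all genes.

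Markers of bone and of macrophages rose in the same comparison. The 6 osteoblast and bone matrix markers summed to 244, 171, 127 and 422 CPM in WT placebo mice and 6774, 10219, 4692 and 6776 CPM in WT tamoxifen mice. No tamoxifen mouse came near a placebo mouse, and all 6 markers rose. Col1a1 was the most abundant at 5340.0 ± 1748 CPM (log2FC 4.48, adjusted p = 2.91e-04), and none of the 6 was at 0. Of the 5 macrophage markers, Csf1r, the most abundant in the tamoxifen mice (log2FC 2.14, adjusted p = 0.00144), Cd68 (log2FC 2.49, adjusted p = 9.44e-04) and Adgre1 (log2FC 1.66, adjusted p = 0.0155) rose, and the list summed to 45.8 ± 10.9 CPM in placebo and 126 ± 47.8 CPM in tamoxifen mice. The fiber markers summed to 88989, 85510.0, 95709 and 96588 CPM in the WT tamoxifen mice, each below each WT placebo mouse (130161, 134199, 129438 and 111552 CPM), and 1 of 7, Myh2, fell (log2FC −0.88, adjusted p = 0.04601), a call lost in 10 of the 16 fits that each left out 1 mouse. Of the slow fiber markers Atp2a2 rose (log2FC 0.76, adjusted p = 0.00935). How far these shifts bear on the members was not tested.

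Tamoxifen in diseased muscle was read from Dnm2SL tamoxifen against Dnm2SL placebo mice. In this comparison edgeR called 0 of 44 members lower and 0 higher, against 3.05% and 5.22% of all genes. An unadjusted p under 0.05 was reached by 1 member (2.27%, against 25.4% of all genes). DESeq2 called 0 (of all genes 4.24% lower and 6.61% higher). The medians were −0.09 over the members and −0.03 over all genes (−0.01 and 0.05 with library size alone). No member separated the groups mouse by mouse. Without Dnm2SL tamoxifen mouse 4, 3 members, Acadl, Hadhb and Mlycd, were called lower and 0 higher, against 6.18% and 10.2% of all genes. That mouse was also apart in the bone markers, which summed to 3448, 6169, 8010.4 and 507 CPM in the Dnm2SL tamoxifen mice against 567, 555, 525 and 414 CPM in the Dnm2SL placebo mice. All 6 bone markers rose, although the sum of mouse 4 lay among those of the placebo mice. Its sums over the members (7055 CPM) and the fiber markers (123829 CPM) were the highest of its group. Of the slow fiber markers Myl3 rose (log2FC 1.57, adjusted p = 0.0238), not without Dnm2SL tamoxifen mouse 2 or 3 (adjusted p = 0.0916 and 0.0597). What bone RNA or slow fibers contributed was not tested.

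In Dnm2SL tamoxifen against WT placebo mice, 23 of 44 members fell and 0 rose by edgeR, against 13.1% and 15.8% of all genes. At an unadjusted p under 0.05 there were 28 members (63.6%, against 40.8% of all genes). DESeq2 called 23 lower and 0 higher (of all genes 12.1% and 15.3%). The medians were −0.35 over the members and 0.01 over all genes. The count was 15 without Dnm2SL tamoxifen mouse 1, 14 without Dnm2SL tamoxifen mouse 3 and 15 without WT placebo mouse 3, all lower (of all genes 9.61%, 8.09% and 8.57%). With library size alone the median of all genes moved by 0.34, the members' median to −0.01, and 6 members were called lower and 4 higher (Acaa1a, Acsl4, Plin2 and Slc27a4), against 2.88% and 39.6% of all genes. Of the bone markers 6 of 6 rose, of the macrophage markers 3 of 5 rose, of the fiber markers 3 of 7 fell, of the slow fiber markers 3 of 6 rose, and 1 of 5 endothelial markers fell. This comparison, the disease effect and the tamoxifen effect in WT mice share the same 4 WT placebo mice, so their counts are not independent. From here on, a change in treated Dnm2SL mice means one against WT placebo mice, and p values after a list of left-out mice follow its order. A call or its absence without a tool or setting named is that of the main edgeR fit with TMM. Alternative fits also called some members that the main fits did not, and not all of those are listed.

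**Figure D1:**
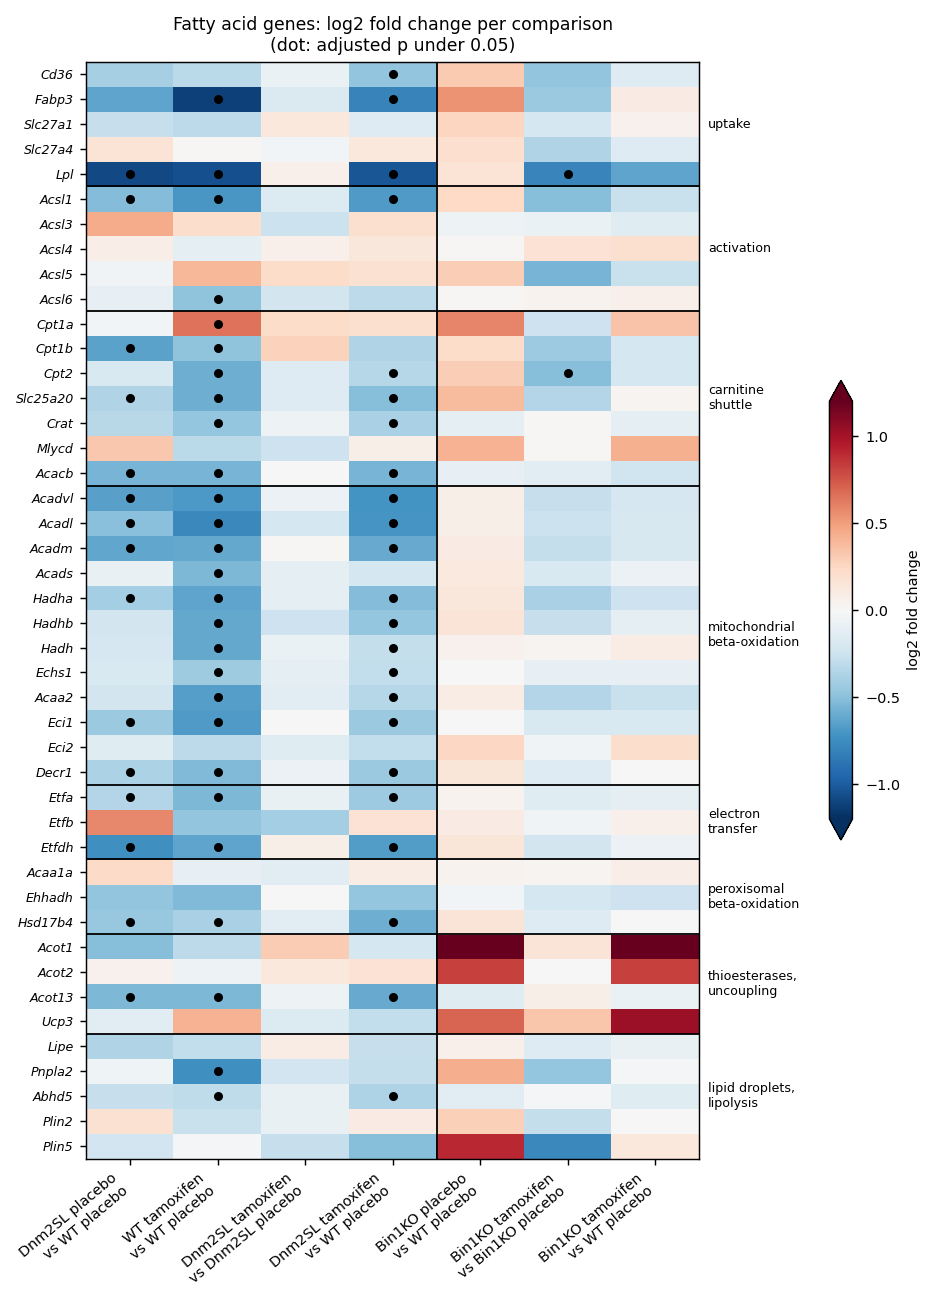
Heat map of the log2FC of each of the 44 members (one line per gene, grouped by role) in the 7 comparisons between groups. Colour runs from blue (lower) to red (higher), is clipped at its ends, and a dot marks an edgeR adjusted p under 0.05. With TMM scaling all 12 mitochondrial beta-oxidation genes are blue in the comparisons against WT placebo mice of the Dnm2 cohort (6, 11 and 10 with dots; with library size alone 6, 12 and 8 lay below 0, called for 3, 9 and 3).

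Between Bin1KO placebo and WT placebo mice edgeR called 0 of 44 members in either direction, while 1.99% of 14841 genes were called higher and 0.627% lower. At an unadjusted p under 0.05 there were 11 members (25%, against 20.2% of all genes). DESeq2 called 3 higher, Acot2, Plin5 and Slc25a20 (of all genes 4.83%). Above 0 lay 37 of 44 members, with a median of 0.15 against 0.01 over all genes. Scaled by library size alone, the median of all genes moved by 0.13, that of the members to 0.27, and 1 member was called higher (of all genes 2.63%), and 5 members, Acot2, Fabp3, Mlycd, Plin5 and Slc25a20, were called higher when only the groups compared were fitted (6.41%). The count was 1 higher without Bin1KO placebo mouse 3, 1 without Bin1KO tamoxifen mouse 2 and 2 without Bin1KO tamoxifen mouse 3 (of all genes 3.31%, 3.42% and 2.91%). Among the markers, 3 of 6 tested adipocyte genes rose: Cfd (log2FC 3.74, adjusted p = 0.0263), Cidec (log2FC 3.54, adjusted p = 0.0147) and Plin1 (log2FC 3.34, adjusted p = 0.0267). These calls were lost in 7, 3 and 6 of the 12 fits that each left out 1 mouse. Fabp4, the most abundant, was 252 ± 12.97 CPM in WT and 248 ± 70.6 CPM in Bin1KO placebo mice, and the 7 listed genes summed to 256 ± 12.5 and 303 ± 70.4 CPM, with Lep at 0 in the WT mice. Of the 5 macrophage markers 3 rose (Adgre1, Cd163 and Cd68, lost in 3, 8 and 6 of those 12 fits), and their list summed to 31.8 ± 4.24 and 92.5 ± 33.99 CPM. Of the 6 slow fiber markers 1, Myl3, the most abundant, fell (log2FC −1.60, adjusted p = 0.0119), not without Bin1 cohort WT mouse 8 (adjusted p = 0.0512), and the list summed to 404 ± 95.4 CPM in WT and 222 ± 49.7 CPM in Bin1KO placebo mice. What these cells and fibers contributed was not tested.

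On tamoxifen against placebo in Bin1KO mice, 2 of 44 members fell, Lpl and Cpt2, and 0 rose by edgeR, against 1.61% lower and 1.52% higher of all genes. DESeq2 called 7 lower, Acsl1, Cd36, Hadha, Plin5 and Pnpla2 in addition (of all genes 3.73%), and 0 higher. An unadjusted p under 0.05 was reached by 14 members (31.8%, against 20.7% of all genes). Below 0 lay 35 of 44 members, with a median of −0.20 against −0.00 over all genes. The count was 0 without Bin1KO placebo mouse 1 or 2 or Bin1KO tamoxifen mouse 3, 1 without Bin1KO tamoxifen mouse 4 and 7, all lower, without Bin1KO tamoxifen mouse 2 (of all genes 4.39%). With library size alone the median of all genes moved by −0.16 and that of the members to −0.35. Under that scaling 9 members were called lower (of all genes 3.42%), without the low-count filter 4 (1.13%) and with only the groups compared 0. With these groups and replicate number as a block Plin5 was called lower (log2FC −0.79, adjusted p = 0.0257), and Lpl and Cpt2 were not. Bin1KO tamoxifen mouse 2 was the highest of its group in the bone markers, which summed to 472, 3091, 405 and 71.8 CPM in the Bin1KO tamoxifen mice and 424, 639, 388 and 1429.6 CPM in the Bin1KO placebo mice, with Col1a1 as the most abundant gene and only 2 of the 6 markers above the filter. Of the adipocyte markers Plin1 fell (log2FC −3.32, adjusted p = 0.0227), which was not called without Bin1KO placebo mouse 1 or 4 or Bin1KO tamoxifen mouse 3 or 4 (adjusted p from 0.0586 to 0.0706), and the list summed to 275 ± 34.3 CPM in the tamoxifen mice. From Bin1KO placebo to tamoxifen mice the macrophage sum went from 92.5 ± 33.99 to 50.5 ± 21.9 CPM and the fiber sum from 111489 ± 14814 to 135910.0 ± 22864 CPM, with no marker of either called. Whether these bear on the members was not tested.

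Between Bin1KO tamoxifen and WT placebo mice edgeR called 0 of 44 members, against 0.465% of all genes called higher and 0.384% called lower. An unadjusted p under 0.05 was reached by 5 members (11.4%, against 14.9% of all genes). DESeq2 called 1, Lpl, lower (of all genes 1.43%). The medians were −0.08 over the members and 0.03 over all genes. By edgeR, Lpl was called lower without Bin1KO tamoxifen mouse 2 (log2FC −0.76, adjusted p = 0.0451) and without the low-count filter (log2FC −0.65, adjusted p = 0.0248). Of the markers the fiber genes Myh2 and Myl3 fell, calls lost in 7 and 8 of the 12 fits that each left out 1 mouse. The comparisons of this cohort share mice pairwise.

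Whether tamoxifen acted differently in Dnm2SL and WT mice was tested as an interaction. By edgeR 2 of 44 members, Lpl (log2FC 1.11, SE 0.21, adjusted p = 0.04699) and Etfdh (log2FC 0.70, SE 0.13, adjusted p = 0.04699), had a higher log2FC on tamoxifen in Dnm2SL than in WT mice and 0 a lower one, against 0.0324% of all genes called higher and 0.227% lower. At an unadjusted p under 0.05 there were 24 members (54.5%, against 13.5% of all genes). DESeq2 called 14 higher, in addition Acaa2, Acadl, Acadm, Acads, Acadvl, Cpt1b, Cpt2, Decr1, Eci1, Etfa, Hadh and Hadha, and 0 lower (of all genes 0.643% and 1.29%). The median over the members was 0.42 and over all genes −0.01, and 37 of 44 members lay above 0. Those became 0.23, −0.21 and 31 with library size alone. The interaction also uses the 4 WT placebo mice whose libraries stood apart. The count was 0 with library size alone, 0 with replicate number as a block, and 1 without the low-count filter or with the filter of more than 10 reads in 90% of mice. Adjusted p with library size alone was 0.0859 for Lpl and 0.0692 for Etfdh, and with the block 0.0627 and 0.0738. The call of Lpl was lost in 12 of 16 fits without 1 mouse (adjusted p up to 0.112), and held without WT placebo mouse 4, WT tamoxifen mouse 3, Dnm2SL placebo mouse 3 or Dnm2SL tamoxifen mouse 4. That of Etfdh was lost in 14 of 16 fits without 1 mouse (adjusted p up to 0.123), and held without Dnm2SL placebo mouse 3 or Dnm2SL tamoxifen mouse 4. The count was 4 higher without Dnm2SL placebo mouse 3 (of all genes 0.612%) and 1 without WT placebo mouse 4 or WT tamoxifen mouse 3.

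The disease effects of the cohorts were compared in a joint fit of all 28 mice, each effect taken against WT placebo mice of its own cohort. By edgeR 5 of 44 members had a lower log2FC in Dnm2SL than in Bin1KO mice and 0 a higher one, against 0.168% of 16036 genes called lower and 0.143% higher. An unadjusted p under 0.05 was reached by 24 members (54.5%, against 13.5% of all genes). DESeq2 called 11 lower, in addition Cd36, Cpt2, Decr1, Fabp3, Hadha and Hsd17b4, and 0 higher (of all genes 0.7905% and 0.833%). The differences in log2FC were −1.25 for Lpl (adjusted p = 0.0113), −0.89 for Etfdh (adjusted p = 0.006098) and −0.75 for Slc25a20 (adjusted p = 0.0222). Those of Acadvl and Acadm were −0.73 (adjusted p = 0.0313) and −0.72 (adjusted p = 0.0357). The median over the members was −0.46 against 0.00 over all genes, and 40 of 44 lay below 0, a median that library size alone moved to −0.30 while that of all genes moved by 0.14. Lpl and Etfdh were called whichever of the 28 mice was left out. The call of Slc25a20 was lost without Bin1KO placebo mouse 2, Bin1 cohort WT mouse 7 or 8, Dnm2SL placebo mouse 1 or WT placebo mouse 2 or 3 (adjusted p from 0.0537 to 0.07803). The count was 2 without Dnm2SL placebo mouse 1, WT placebo mouse 2 or 3, Bin1KO placebo mouse 2 or Bin1 cohort WT mouse 7 or 8, and 3 without Dnm2SL placebo mouse 2 or 4 or Bin1KO placebo mouse 1 or 3. Genotype and library protocol differ together between the cohorts, and their parts in this difference cannot be told apart.

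The tamoxifen effects in diseased mice differed between the cohorts for 1 of 44 members by edgeR, Lpl (log2FC 0.88, SE 0.23, adjusted p = 0.0461), which had the higher log2FC in Dnm2SL mice, and 0 were lower, against 1.05% of all genes called higher and 0.655% lower. At an unadjusted p under 0.05 there were 9 members (20.5%, against 24.0% of all genes). DESeq2 called 1 higher and 0 lower (of all genes 5.21% and 4.39%). The medians were 0.20 over the members and 0.01 over all genes. The call of Lpl was lost in 22 of 28 fits without 1 mouse (adjusted p up to 0.111), and held without WT tamoxifen mouse 4, Dnm2SL placebo mouse 1 or 3, Dnm2SL tamoxifen mouse 4, Bin1 cohort WT mouse 5 or Bin1KO tamoxifen mouse 2. It was also lost without the low-count filter (adjusted p = 0.0522) and when only the 4 groups compared were fitted (adjusted p = 0.135). The count was 3 without Bin1KO tamoxifen mouse 2 (of all genes 7.86% higher) and 3 with library size alone (of all genes 1.197% higher), which moved the median of all genes by 0.21 and that of the members to 0.38.

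Of the 5 uptake genes, Lpl encodes lipoprotein lipase, Cd36 a fatty acid transporter of the membrane, Slc27a1 and Slc27a4 fatty acid transport proteins, and Fabp3 the cytosolic carrier. In the Dnm2 cohort Lpl was 826, 766, 836 and 757 CPM in WT placebo and 452, 309.8, 426 and 319 CPM in Dnm2SL placebo mice. With tamoxifen it was 416, 371, 441 and 303 CPM in WT and 341, 466, 367 and 393 CPM in Dnm2SL mice. All 12 mice of the other groups lay below the lowest WT placebo mouse, and those 12 overlapped among themselves. Lpl fell in Dnm2SL placebo mice (log2FC −1.08, SE 0.15, adjusted p = 1.77e-04), in WT mice on tamoxifen (log2FC −1.06, SE 0.15, adjusted p = 2.91e-04) and in treated Dnm2SL mice (log2FC −1.02, SE 0.15, adjusted p = 3.10e-04). Between Dnm2SL tamoxifen and Dnm2SL placebo mice the log2FC was 0.06 (adjusted p = 0.851). No single mouse ended the 3 calls.

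In WT mice of the Bin1 cohort Lpl was 557, 520.4, 406 and 489 CPM, in Bin1KO placebo mice 541, 606, 623 and 438 CPM and in Bin1KO tamoxifen mice 284, 396, 237 and 356 CPM. The 4 tamoxifen mice lay below all other mice of this cohort, whose genotypes overlapped. Lpl fell on tamoxifen (log2FC −0.79, SE 0.17, adjusted p = 0.0207), and it was not called in Bin1KO placebo against WT mice (log2FC 0.16, adjusted p = 0.636) nor in Bin1KO tamoxifen against WT mice (log2FC −0.63, adjusted p = 0.0959). The fall was not called without Bin1KO placebo mouse 1 or 2 or Bin1KO tamoxifen mouse 3 (adjusted p = 0.0529, 0.0624 and 0.0586), with only the groups compared (adjusted p = 0.0717) or with these and replicate number as a block (adjusted p = 0.1097). The endothelial markers, which mark the wall where the enzyme acts, summed to 501, 475, 547 and 472 CPM in WT, 363, 366, 503 and 412 CPM in Bin1KO placebo and 378, 402, 345 and 258 CPM in Bin1KO tamoxifen mice, with Cdh5 the most abundant and none at 0. Their part in the level of Lpl was not tested.

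Fabp3 was 192, 209.7, 225 and 151 CPM in WT placebo and 86.9, 107, 61.4 and 101 CPM in WT tamoxifen mice, and 83.7, 162, 128 and 128 CPM in Dnm2SL placebo and 97.3, 95.9, 83.1 and 168 CPM in Dnm2SL tamoxifen mice. All WT tamoxifen mice were below all WT placebo mice, while Dnm2SL placebo mouse 2 and tamoxifen mouse 4 exceeded the lowest WT placebo mouse. It fell in WT mice on tamoxifen (log2FC −1.12, SE 0.24, adjusted p = 0.00343) and in treated Dnm2SL mice (log2FC −0.81, SE 0.24, adjusted p = 0.0204). Between the placebo groups DESeq2 called it and edgeR did not (log2FC −0.63, adjusted p = 0.0685). There edgeR called it with only the groups compared (log2FC −0.65, adjusted p = 0.0432) and without Dnm2SL tamoxifen mouse 4 (log2FC −0.63, adjusted p = 0.0280). The fall in Dnm2SL tamoxifen mice was not called without Dnm2SL tamoxifen mouse 1, 2 or 3 or WT placebo mouse 2 or 3 (adjusted p from 0.05802 to 0.0703), with library size alone (log2FC −0.47, adjusted p = 0.0775) or without the low-count filter (adjusted p = 0.06104). Its levels in the Bin1 cohort were 156, 149, 96.8 and 128 in WT, 183, 219, 178 and 193 CPM in Bin1KO placebo and 154, 186, 88.5 and 139.5 CPM in Bin1KO tamoxifen mice. All Bin1KO placebo mice were above all WT mice, a difference that was not called (log2FC 0.54, adjusted p = 0.135), nor was that on tamoxifen (log2FC −0.44, adjusted p = 0.215).

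Cd36 was 427, 441, 457 and 599.6 CPM in WT placebo and 408, 306, 379.6 and 368 CPM in Dnm2SL placebo mice, and 343, 319, 458 and 419 CPM in WT tamoxifen and 321, 386, 278 and 397 CPM in Dnm2SL tamoxifen mice. Both Dnm2SL groups lay below every WT placebo mouse, and 1 WT tamoxifen mouse lay among the WT placebo mice. By edgeR only the comparison of Dnm2SL tamoxifen with WT placebo mice was called (log2FC −0.48, SE 0.15, adjusted p = 0.0285), not that of the placebo groups (log2FC −0.40, adjusted p = 0.0735), which DESeq2 called, nor that of tamoxifen in WT mice (log2FC −0.32, adjusted p = 0.124). The call was lost without Dnm2SL tamoxifen mouse 1 or 3 or WT placebo mouse 3 or 4 (adjusted p from 0.0535 to 0.0991), with library size alone (log2FC −0.13, adjusted p = 0.504) and with only the groups compared (adjusted p = 0.0544). Its levels in the Bin1 cohort were 363, 344, 283 and 323 in WT, 398, 414, 393 and 429 CPM in Bin1KO placebo and 335, 348, 246 and 248 CPM in Bin1KO tamoxifen mice. The Bin1KO placebo mice lay above all other mice of the cohort, and neither the difference from WT (log2FC 0.31, adjusted p = 0.198) nor that on tamoxifen (log2FC −0.47, adjusted p = 0.0641) was called by edgeR, while DESeq2 called the latter. Slc27a1 and Slc27a4 were not called in the main fit of any comparison.

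The 5 long-chain acyl-CoA synthetases attach coenzyme A to fatty acids. Acsl1 was 544, 599.8, 634 and 467 in WT placebo, 389, 328, 332 and 337 in WT tamoxifen, 384, 318, 382 and 481 CPM in Dnm2SL placebo and 277, 317, 327 and 479.5 CPM in Dnm2SL tamoxifen mice. The WT tamoxifen mice were below all WT placebo mice, and mouse 4 of each Dnm2SL group passed the lowest WT placebo mouse. It fell in WT mice on tamoxifen (log2FC −0.70, SE 0.16, adjusted p = 0.00568), in Dnm2SL placebo mice (log2FC −0.52, SE 0.16, adjusted p = 0.0325) and in treated Dnm2SL mice (log2FC −0.68, SE 0.16, adjusted p = 0.00638). The fall in Dnm2SL placebo mice was not called without Dnm2SL placebo mouse 1, 2 or 3 or WT placebo mouse 1, 2 or 3 (adjusted p from 0.0525 to 0.116). Scaled by library size alone, none of the 3 was called (adjusted p = 0.0523, 0.246 and 0.0806).

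Acsl1 was 549, 435, 331 and 407 in WT, 496, 530.5, 516 and 486 CPM in Bin1KO placebo and 333, 429, 336 and 328 CPM in Bin1KO tamoxifen mice of the Bin1 cohort. All tamoxifen mice were below all Bin1KO placebo mice, which DESeq2 called and edgeR did not (log2FC −0.51, SE 0.14, adjusted p = 0.0677). Of the other synthetases, Acsl6 fell in WT mice on tamoxifen (log2FC −0.48, adjusted p = 0.0221), with overlapping groups. That call was lost without WT placebo mouse 2 or 3 or WT tamoxifen mouse 2 or 4 (adjusted p from 0.05495 to 0.0935) and with library size alone (log2FC −0.19, adjusted p = 0.287). Acsl3, Acsl4 and Acsl5 were not called in the main fit of any comparison.

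Of the 7 genes of the carnitine shuttle and its control, Cpt1b encodes the muscle form of carnitine palmitoyltransferase at the outer membrane, Cpt1a the liver form, Slc25a20 the carrier for acylcarnitines, Cpt2 the transferase at the inner membrane and Crat carnitine acetyltransferase. Acacb makes malonyl-CoA, which blocks the entry step, and Mlycd degrades it. In Dnm2SL placebo mice 3 of the 7 fell (of all genes 9.81%), in WT mice on tamoxifen 5 fell and 1 rose (11.9% and 15.8%), and in treated Dnm2SL mice 4 fell (13.1%). With library size alone these were 1 lower and 1 higher, 2 lower and 1 higher, and 0 in either direction, beside 3.03% and 31.1%, 2.48% and 28.5%, and 2.88% and 39.6% of all genes. Cpt1b was 10.8, 13.6, 15.97 and 13.4 in WT placebo, 8.81, 8.49, 9.46 and 7.52 in Dnm2SL placebo, 8.45, 9.598, 9.98 and 10.3 CPM in WT tamoxifen and 8.71, 9.21, 10.4 and 13.3 CPM in Dnm2SL tamoxifen mice. The Dnm2SL placebo and WT tamoxifen mice all lay below the WT placebo mice, while Dnm2SL tamoxifen mouse 4 lay among these. Cpt1b fell in Dnm2SL placebo mice (log2FC −0.64, SE 0.15, adjusted p = 0.00601) and in WT mice on tamoxifen (log2FC −0.48, SE 0.14, adjusted p = 0.0211), and was not called in treated Dnm2SL mice (log2FC −0.36, adjusted p = 0.0687). The fall on tamoxifen was lost without WT placebo mouse 2 or 3 or WT tamoxifen mouse 1 or 2 (adjusted p from 0.0511 to 0.0778) and with library size alone (log2FC −0.20, adjusted p = 0.2003). In treated Dnm2SL mice a fall was called without Dnm2SL tamoxifen mouse 4 (log2FC −0.50, adjusted p = 0.00999) and without WT placebo mouse 1 (log2FC −0.46, adjusted p = 0.0336). Cpt1b in the Bin1 cohort was 11.6, 13.4, 11.5 and 7.65 in WT, 16.8, 12.01, 11.99 and 10.7 CPM in Bin1KO placebo and 8.76, 11.3, 11.3 and 6.54 CPM in Bin1KO tamoxifen mice, with overlapping groups and no call (adjusted p = 0.591 and, on tamoxifen, 0.247).

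Cpt2 was 95.1, 94.003, 105 and 97.6 in WT placebo, 85.6, 90.3, 88.996 and 80.1 in Dnm2SL placebo, 64.8, 55.4, 67.6 and 72.4 CPM in WT tamoxifen and 70.4, 75.8, 76.3 and 86.6 CPM in Dnm2SL tamoxifen mice. All 12 lay below the WT placebo mice, and the WT tamoxifen group held the lowest mice. It fell in WT mice on tamoxifen (log2FC −0.59, SE 0.09, adjusted p = 5.09e-04) and in treated Dnm2SL mice (log2FC −0.34, SE 0.09, adjusted p = 0.0122), and was not called between the placebo groups (log2FC −0.18, adjusted p = 0.164). The fall in Dnm2SL tamoxifen mice was lost without WT placebo mouse 3 (adjusted p = 0.0534), and library size alone turned its direction (log2FC 0.01, adjusted p = 0.919). Cpt2 in the Bin1 cohort was 107, 120.0, 104 and 104 in WT, 142, 145, 132 and 115 CPM in Bin1KO placebo and 99.1, 106, 78.1 and 92.8 CPM in Bin1KO tamoxifen mice. Each tamoxifen mouse was below each Bin1KO placebo mouse, and the fall was called (log2FC −0.51, SE 0.11, adjusted p = 0.0282). It was lost without Bin1KO placebo mouse 1 or 2 or Bin1KO tamoxifen mouse 3 or 4 (adjusted p from 0.06102 to 0.0814), with only the groups compared (adjusted p = 0.0933) and with these and replicate number as a block (adjusted p = 0.123).

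Cpt1a was 11.2, 14.7, 16.4 and 15.1 CPM in WT placebo and 23.6, 26.4, 13.6 and 26.1 CPM in WT tamoxifen mice, where it rose (log2FC 0.65, SE 0.24, adjusted p = 0.0496), with mouse 3 among the placebo mice. The call was lost in 12 of 16 fits without 1 mouse (adjusted p up to 0.137), and held without WT tamoxifen mouse 3 or Dnm2SL tamoxifen mouse 1, 3 or 4. It was also lost without the low-count filter (adjusted p = 0.0888), with replicate number as a block (adjusted p = 0.0753) and with RLE size factors (adjusted p = 0.0554). Slc25a20 fell in Dnm2SL placebo (log2FC −0.36), WT tamoxifen (−0.59) and Dnm2SL tamoxifen mice (−0.52), each time with no overlap with WT placebo mice. Acacb fell in the same comparisons (−0.56, −0.56 and −0.55) with overlapping groups. Crat fell in WT tamoxifen (−0.47) and Dnm2SL tamoxifen mice (−0.39), without overlap, and Mlycd was not called.

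The calls in Dnm2SL placebo mice were lost for Slc25a20 without Dnm2SL placebo mouse 1 or WT placebo mouse 2 or 3 (adjusted p = 0.05597, 0.0796 and 0.0977) and for Acacb without Dnm2SL placebo mouse 2, 3 or 4 or WT placebo mouse 1, 2 or 3 (adjusted p from 0.0531 to 0.105). In WT mice on tamoxifen the call of Acacb was lost without WT placebo mouse 2 or 3 or WT tamoxifen mouse 2 or 4 (adjusted p from 0.0625 to 0.08396). In treated Dnm2SL mice the call of Crat was lost without Dnm2SL tamoxifen mouse 1, 2 or 3 or WT placebo mouse 2, 3 or 4 (adjusted p from 0.0519 to 0.0919) and that of Acacb without Dnm2SL tamoxifen mouse 1, 2 or 3 or WT placebo mouse 2 or 3 (adjusted p from 0.0688 to 0.08903). Of the calls of these 3 genes, library size alone left only that of Slc25a20 in WT mice on tamoxifen.

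The 12 mitochondrial beta-oxidation genes encode the acyl-CoA dehydrogenases of the first step (Acadvl, Acadl, Acadm and Acads, for very long to short chains), the trifunctional protein (Hadha and Hadhb), the hydratase, dehydrogenase and thiolase of shorter chains (Echs1, Hadh and Acaa2), and the enzymes for unsaturated chains (Eci1, Eci2 and Decr1). In Dnm2SL placebo mice 6 of 12 fell, in WT mice on tamoxifen 11 and in treated Dnm2SL mice 10, against 9.81%, 11.9% and 13.1% of all genes, and all 12 had log2FCs below 0 in each, with TMM scaling. Scaled by library size alone, 6, 12 and 8 of the 12 lay below 0, and 3, 9 and 3 were called lower, against 3.03%, 2.48% and 2.88%. The median log2FCs were −0.30, −0.62 and −0.45, and −0.03, −0.33 and −0.10 with library size alone.

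Acadvl was 555, 592, 633 and 559 in WT placebo, 349, 369, 421 and 346 in Dnm2SL placebo, 377, 371, 370.4 and 329.6 CPM in WT tamoxifen and 338, 382, 326 and 372 CPM in Dnm2SL tamoxifen mice. The WT placebo mice stood above all 12 others, which overlapped. Acadvl fell in Dnm2SL placebo mice (log2FC −0.66, SE 0.09, adjusted p = 2.46e-04), in WT mice on tamoxifen (log2FC −0.69, SE 0.09, adjusted p = 2.80e-04) and in treated Dnm2SL mice (log2FC −0.72, SE 0.09, adjusted p = 1.99e-04). Acadvl in the Bin1 cohort was 645, 667, 573 and 624 in WT, 724, 697, 694 and 523 CPM in Bin1KO placebo and 577, 579.7, 448 and 572 CPM in Bin1KO tamoxifen mice, and the groups overlapped. Neither the disease comparison (log2FC 0.07, adjusted p = 0.807) nor that of tamoxifen (log2FC −0.28, adjusted p = 0.243) was called. The difference of the disease effects of the cohorts, −0.73, was not called without Bin1KO placebo mouse 1, 2 or 3, Bin1 cohort WT mouse 7 or 8, Dnm2SL placebo mouse 1, 2 or 4 or WT placebo mouse 2 or 3 (adjusted p from 0.0639 to 0.0838).

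Acadl was 475, 545, 545 and 537 in WT placebo, 339, 414, 381 and 353 in Dnm2SL placebo, 309, 291, 308 and 321 CPM in WT tamoxifen and 287, 308, 274 and 416 CPM in Dnm2SL tamoxifen mice. Again no mouse of the other groups reached a WT placebo mouse, and Dnm2SL tamoxifen mouse 4 was above the rest of its group. Acadl fell in Dnm2SL placebo mice (log2FC −0.50, SE 0.12, adjusted p = 0.00864), in WT mice on tamoxifen (log2FC −0.77, SE 0.12, adjusted p = 4.98e-04) and in treated Dnm2SL mice (log2FC −0.71, SE 0.12, adjusted p = 7.78e-04). Its levels were 459, 491, 364 and 413 in WT, 476, 472, 491 and 381 CPM in Bin1KO placebo and 400.1, 415, 291 and 411 CPM in Bin1KO tamoxifen mice of the Bin1 cohort. These overlapped, and neither genotype (log2FC 0.07, adjusted p = 0.822) nor tamoxifen (log2FC −0.26, adjusted p = 0.305) gave a call.

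Acadm was 340.4, 362, 410.2 and 316 in WT placebo, 217, 214, 271 and 225 in Dnm2SL placebo, 245, 226, 246 and 218 CPM in WT tamoxifen and 224, 247, 214 and 254 CPM in Dnm2SL tamoxifen mice. All WT placebo mice were above all others. Acadm fell in Dnm2SL placebo mice (log2FC −0.62, SE 0.11, adjusted p = 8.92e-04), in WT mice on tamoxifen (log2FC −0.61, SE 0.11, adjusted p = 8.96e-04) and in treated Dnm2SL mice (log2FC −0.61, SE 0.11, adjusted p = 8.93e-04). Acadm in the Bin1 cohort was 327, 360.4, 279 and 341 in WT, 383, 369, 362 and 281 CPM in Bin1KO placebo and 294, 293, 264 and 294 CPM in Bin1KO tamoxifen mice. The groups overlapped, without a call (log2FC 0.09, adjusted p = 0.721), on tamoxifen (log2FC −0.29, adjusted p = 0.194). The difference of the disease effects of the cohorts, −0.72, was not called without Bin1KO placebo mouse 1, 2 or 3, Bin1 cohort WT mouse 7 or 8, Dnm2SL placebo mouse 1, 2 or 4 or WT placebo mouse 2 or 3 (adjusted p from 0.0702 to 0.101) or when only the 4 groups compared were fitted (adjusted p = 0.0575).

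Hadha was 539, 546, 626 and 551 in WT placebo, 415, 448, 436 and 402 in Dnm2SL placebo, 377, 345, 376 and 364 CPM in WT tamoxifen and 363, 387, 349 and 482 CPM in Dnm2SL tamoxifen mice. The WT placebo mice were above all others. Hadha fell in Dnm2SL placebo mice (log2FC −0.41, SE 0.10, adjusted p = 0.0105), in WT mice on tamoxifen (log2FC −0.63, SE 0.10, adjusted p = 6.37e-04) and in treated Dnm2SL mice (log2FC −0.52, SE 0.10, adjusted p = 0.00205). The call in Dnm2SL placebo mice was lost without WT placebo mouse 3 (adjusted p = 0.0607). With library size alone it was also lost (adjusted p = 0.134), as was that of treated Dnm2SL mice (adjusted p = 0.0609). Hadha in the Bin1 cohort was 579, 618, 516 and 508 in WT, 669, 636, 611 and 532 CPM in Bin1KO placebo and 497, 525, 405 and 447 CPM in Bin1KO tamoxifen mice. Each tamoxifen mouse was below each Bin1KO placebo mouse, without a call by edgeR (log2FC −0.39, SE 0.12, adjusted p = 0.0949), while DESeq2 called it.

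Of the other beta-oxidation genes, Eci1 and Decr1 fell in all 3 comparisons with WT placebo mice, with no overlap (Eci1 −0.44, −0.68 and −0.45, Decr1 −0.38, −0.53 and −0.45 in log2FC, in Dnm2SL placebo, WT tamoxifen and Dnm2SL tamoxifen mice). Acaa2, Echs1, Hadh and Hadhb fell in WT mice on tamoxifen (−0.66, −0.43, −0.62 and −0.62) and in Dnm2SL tamoxifen mice (−0.35, −0.29, −0.28 and −0.47), and Acads fell in WT mice on tamoxifen (−0.54). The groups overlapped for Hadh and Hadhb in Dnm2SL tamoxifen mice. The call of Eci1 was lost in Dnm2SL placebo mice without Dnm2SL placebo mouse 1 or 4 or WT placebo mouse 1, 2 or 4 (adjusted p from 0.0557 to 0.0990) and in Dnm2SL tamoxifen mice without Dnm2SL tamoxifen mouse 1, 2 or 3 or WT placebo mouse 2 or 4 (adjusted p from 0.0502 to 0.0774). In the latter comparison that of Echs1 was lost without Dnm2SL tamoxifen mouse 1, 2 or 3 or WT placebo mouse 1, 3 or 4 (adjusted p from 0.0633 to 0.0966), that of Acaa2 without Dnm2SL tamoxifen mouse 1, 2 or 3 or WT placebo mouse 3 (adjusted p from 0.0625 to 0.0808) and that of Hadh in 11 of 16 fits without 1 mouse (adjusted p up to 0.19999), and held without WT placebo mouse 1, WT tamoxifen mouse 2, Dnm2SL placebo mouse 2 or 3 or Dnm2SL tamoxifen mouse 4. Without the low-count filter Echs1, Hadh and Acaa2 were not called there (adjusted p = 0.106, 0.121 and 0.0546), nor were Echs1 and Hadh with only the groups compared or with more than 10 reads in 90% of mice, nor was Echs1 with replicate number as a block. Library size alone ended the calls of Eci1 and Decr1 in both Dnm2SL groups, of Echs1 and Acads in WT mice on tamoxifen, and of Acaa2, Echs1, Hadh and Hadhb in Dnm2SL tamoxifen mice, where Echs1 and Hadh turned to log2FCs of 0.06 and 0.07.

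**Figure D2:**
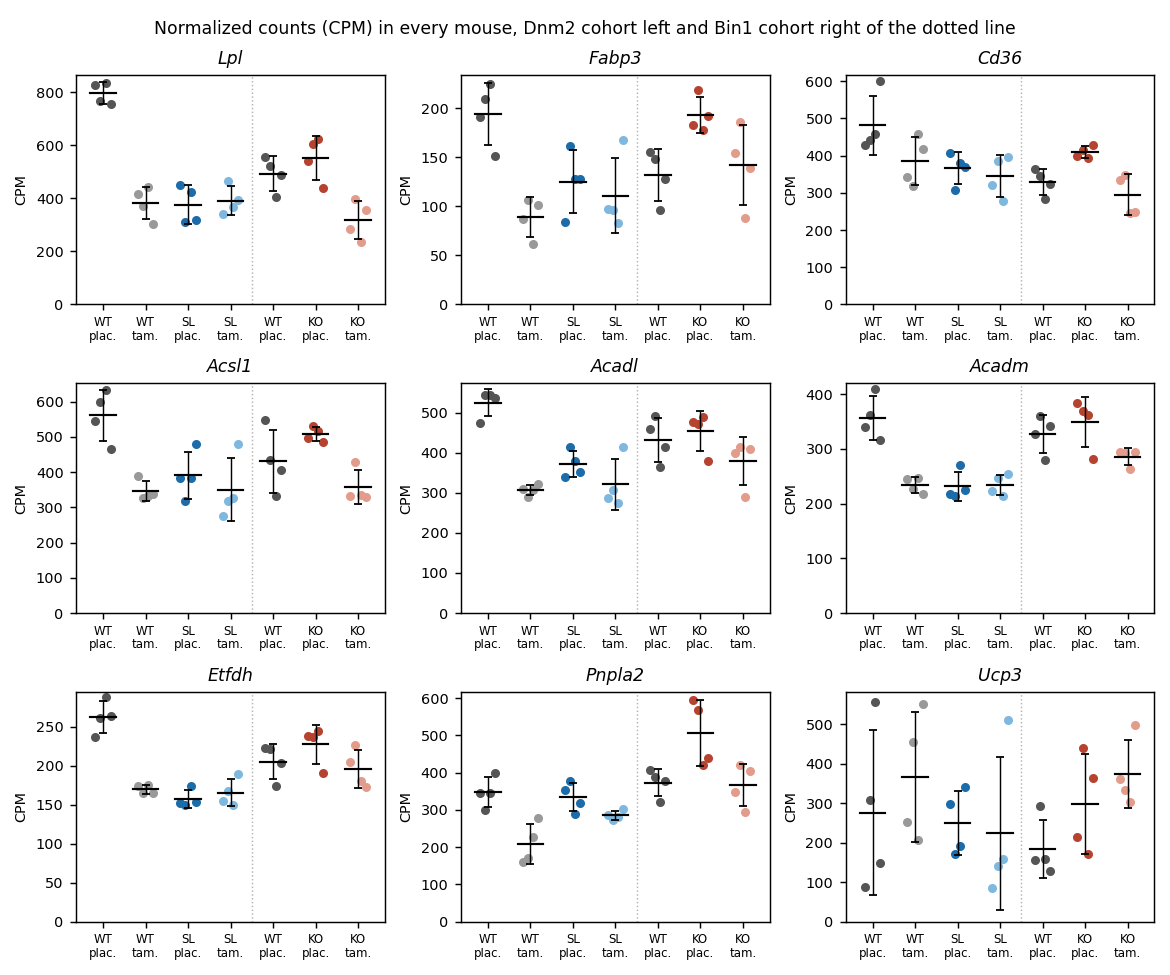
Level of 9 members in every mouse (CPM on the vertical axis, 7 groups of 4 mice on the horizontal axis). Points are mice, bars the mean and whiskers the SD. For Lpl, Acadl, Acadm and Etfdh all 4 WT placebo mice of the Dnm2 cohort sit above the other 12 mice of that cohort (Lpl 757 CPM or more against 466 CPM or less with TMM scaling).

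Electrons taken by the acyl-CoA dehydrogenases pass through the electron transfer flavoprotein, whose subunits are Etfa and Etfb, to its dehydrogenase Etfdh in the inner membrane. Etfdh was 237, 262, 288 and 263 in WT placebo, 152, 150.1, 174 and 154 in Dnm2SL placebo, 174, 164, 175 and 165 CPM in WT tamoxifen and 154, 168, 150.1 and 189 CPM in Dnm2SL tamoxifen mice. The WT placebo mice were above all 12 others, which overlapped. Etfdh fell in Dnm2SL placebo mice (log2FC −0.74, SE 0.09, adjusted p = 9.95e-05), in WT mice on tamoxifen (log2FC −0.63, SE 0.09, adjusted p = 3.68e-04) and in treated Dnm2SL mice (log2FC −0.67, SE 0.09, adjusted p = 2.49e-04). Its levels in the Bin1 cohort were 223, 221, 174 and 203 in WT, 239, 237, 244 and 190.2 CPM in Bin1KO placebo and 204, 226, 181 and 173 CPM in Bin1KO tamoxifen mice. Bin1KO placebo mouse 4 was low, the groups overlapped, and there was no call (log2FC 0.15, adjusted p = 0.553), on tamoxifen (log2FC −0.22, adjusted p = 0.343). Etfa fell in the same 3 comparisons of the Dnm2 cohort without overlap (log2FC −0.35, −0.54 and −0.43). Its call in Dnm2SL placebo mice was lost without WT placebo mouse 2 or 3 (adjusted p = 0.0686 and 0.0751), without the low-count filter (adjusted p = 0.0506) and with library size alone (log2FC −0.08, adjusted p = 0.471), and that in Dnm2SL tamoxifen mice with library size alone (log2FC −0.08, adjusted p = 0.401). Etfb was not called.

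Peroxisomes shorten very long chains with the bifunctional enzymes Ehhadh and Hsd17b4 and the thiolase Acaa1a. Of these 3, Hsd17b4 fell in Dnm2SL placebo mice (log2FC −0.45, adjusted p = 0.00833), in WT mice on tamoxifen (log2FC −0.39, adjusted p = 0.0145) and in treated Dnm2SL mice (log2FC −0.59, adjusted p = 0.00129), with no overlap between the groups in each. The fall in WT mice was lost without WT placebo mouse 2 or 3 (adjusted p = 0.05005 and 0.0721), and with library size alone none of the 3 was called (adjusted p = 0.171, 0.472 and 0.0595). Ehhadh and Acaa1a were not called in the main fit of any comparison. Ehhadh was called lower in Dnm2SL placebo mice without Dnm2SL placebo mouse 3 (adjusted p = 0.0276). In WT mice on tamoxifen it was called lower without WT tamoxifen mouse 4 or Dnm2SL placebo mouse 3 (adjusted p = 0.0282 and 0.0463). With only the groups compared it was lower in treated Dnm2SL mice (adjusted p = 0.0485). Acaa1a was called higher in Dnm2SL placebo mice without WT tamoxifen mouse 1 (adjusted p = 0.0417).

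Acyl-CoA thioesterases split acyl-CoA back to free fatty acid, Acot1 in the cytosol and Acot2 and Acot13 in mitochondria, and Ucp3 is an uncoupling protein of muscle mitochondria. Ucp3 was 88.4, 307, 556 and 148 in WT placebo, 252, 456, 207 and 553 in WT tamoxifen, 297, 172, 191 and 341 CPM in Dnm2SL placebo and 84.5, 142, 157 and 511 CPM in Dnm2SL tamoxifen mice. The groups overlapped in every comparison of this cohort. No comparison of the Dnm2 cohort was called, with an SE of 0.57 in Dnm2SL placebo mice and log2FCs from −0.30 to 0.42. Its levels in the Bin1 cohort were 155, 293, 159 and 128 in WT, 215, 440.2, 170.2 and 364 CPM in Bin1KO placebo and 361, 334, 303 and 498 CPM in Bin1KO tamoxifen mice. Every tamoxifen mouse was above every WT mouse, which was not called (log2FC 1.02, SE 0.33, adjusted p = 0.182). Acot13 fell without overlap in Dnm2SL placebo (log2FC −0.54), WT tamoxifen (−0.54) and treated Dnm2SL mice (−0.60), and no single mouse ended these calls.

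Acot2 was higher in each Bin1KO placebo mouse than in each WT mouse of that cohort, which DESeq2 called and edgeR did not (log2FC 0.82, adjusted p = 0.128).

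Of the 5 droplet and lipolysis genes, Pnpla2 encodes the lipase that starts the breakdown of stored triglyceride, Abhd5 its activator and Lipe the next lipase, and Plin2 and Plin5 coat droplets. Pnpla2 was 346, 299, 346 and 398 in WT placebo, 159, 171, 227 and 278 in WT tamoxifen, 355, 376, 289 and 318 CPM in Dnm2SL placebo and 286, 272, 279.9 and 302 CPM in Dnm2SL tamoxifen mice. The WT tamoxifen mice were all below the WT placebo mice, and both Dnm2SL groups overlapped with WT placebo. Pnpla2 fell in WT mice on tamoxifen (log2FC −0.73, SE 0.15, adjusted p = 0.00279), a call that no single mouse ended. It was not called between the placebo groups (log2FC −0.05, adjusted p = 0.832) nor in Dnm2SL mice on tamoxifen (log2FC −0.23, adjusted p = 0.363), nor was the interaction (log2 difference 0.50, adjusted p = 0.329). Pnpla2 in the Bin1 cohort was 406, 388, 322 and 377 in WT, 596, 569, 422 and 439 CPM in Bin1KO placebo and 348, 422, 295 and 403 CPM in Bin1KO tamoxifen mice. All Bin1KO placebo mice were above all WT mice, without a call (log2FC 0.44, SE 0.15, adjusted p = 0.113), and only DESeq2 called a fall on tamoxifen (log2FC −0.46, adjusted p = 0.0948).

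Abhd5 fell in WT mice on tamoxifen (log2FC −0.30, adjusted p = 0.0388), with overlapping groups, and in treated Dnm2SL mice (log2FC −0.37, adjusted p = 0.0144), without overlap. The first call was lost without Dnm2SL tamoxifen mouse 1, WT placebo mouse 2, 3 or 4 or WT tamoxifen mouse 1, 2 or 4 (adjusted p from 0.0503 to 0.118), and the second without Dnm2SL tamoxifen mouse 3 or WT placebo mouse 2 (adjusted p = 0.0562 and 0.0513). With library size alone neither was called (adjusted p = 0.896 and 0.902), nor was the first without the low-count filter, with more than 10 reads in 90% of mice, with only the groups compared or with replicate number as a block. For Plin5 the Bin1KO placebo mice were above all others, which DESeq2 called and edgeR did not, against WT (log2FC 0.90, adjusted p = 0.05597) and on tamoxifen (log2FC −0.78, adjusted p = 0.0843). Lipe and Plin2 were not called in the main fit of any comparison.

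**Figure D3:**
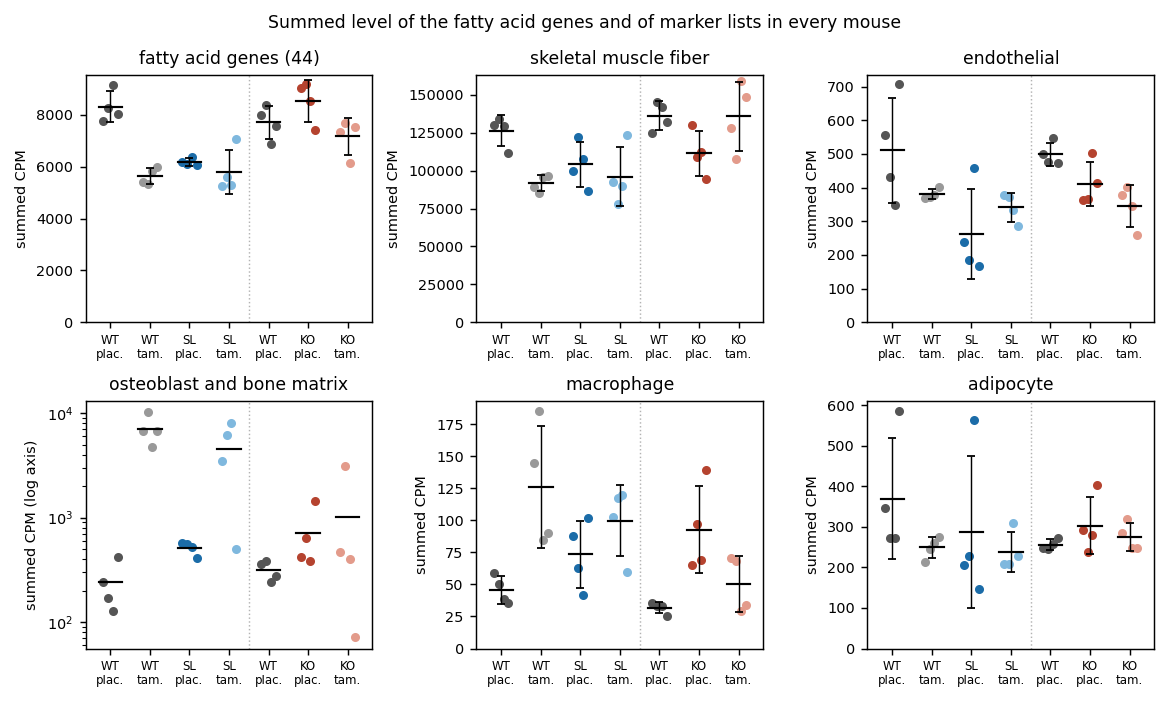
Summed level per mouse (CPM on the vertical axis, logarithmic for the bone matrix markers) of the 44 members and of the marker lists of muscle fibers, endothelium, bone matrix, macrophages and adipocytes, for the 7 groups of 4 mice on the horizontal axis. Points are mice, bars the mean and whiskers the SD (no whiskers in the bone matrix panel). Dnm2SL tamoxifen mouse 4 is the lowest of its group for bone matrix (507 CPM).

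Of the brown adipocyte markers, Cidea was at most 2.78 CPM in the Dnm2 cohort, and Ucp1 was at 0 in WT placebo mice of both cohorts and in Bin1KO placebo mice. Cidea rose in Dnm2SL placebo and in treated Dnm2SL mice, the former lost in 4 of 16 fits without 1 mouse. The 5 neutrophil and marrow markers summed to at most 11.5 CPM in any mouse, in Bin1KO tamoxifen mouse 4, with S100a9 the most abundant and Elane at 0 in 5 of the 7 groups. The 5 erythroid markers, led by Hbb-bs, summed to 949 ± 579 CPM in WT placebo, 1771 ± 837 CPM in WT tamoxifen, 568 ± 222 CPM in Dnm2SL placebo and 1237 ± 601 CPM in Dnm2SL tamoxifen mice, and 1 of the 5, Alas2, fell in Dnm2SL placebo mice, a call lost in 11 of 16 such fits. In the Bin1 cohort the erythroid sum was 539.8 ± 249.6 CPM in WT, 1415 ± 544 CPM in Bin1KO placebo and 544 ± 389 CPM in Bin1KO tamoxifen mice, with no call. Of the adipocyte markers in the Dnm2 cohort, Fabp4, the most abundant, fell in treated Dnm2SL mice, a call lost in 8 of 16 such fits. The list summed to 369 ± 149 CPM in WT placebo and 238 ± 48.8 CPM in Dnm2SL tamoxifen mice. Mouse by mouse it was 346, 273, 272 and 586 CPM in WT placebo and 207, 228, 563 and 147 CPM in Dnm2SL placebo mice, where mouse 3 stood apart. Muscle, vessel or immune cells also express several of these markers, and members such as Lpl, Cd36, Lipe and Plin2 are expressed in adipocytes too.

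Other genes of the pathway were taken from a list of 63, of which 62 were found (Tmlhe was not) and 60 passed the filter. In Dnm2SL placebo mice 14 of the 60 fell and 5 rose, against 9.81% and 12.1% of all genes, in WT mice on tamoxifen 23 and 1, against 11.9% and 15.8%, and in treated Dnm2SL mice 17 and 5, against 13.1% and 15.8%. These counts depended on the scaling, and with library size alone they were 5 lower and 12 higher, 7 and 5, and 6 and 12, against 3.03% and 31.1%, 2.48% and 28.5%, and 2.88% and 39.6% of all genes. In Dnm2SL mice on tamoxifen 3 fell and 1 rose, against 3.05% and 5.22% of all genes (2 and 2 with library size alone, against 1.64% and 4.77%). In Bin1KO against WT placebo mice 3 rose, against 1.99% of all genes, on tamoxifen 3 fell, against 1.61% (8 with library size alone, against 3.42%), and in Bin1KO tamoxifen against WT mice 2 fell and 1 rose, against 0.384% and 0.465% (1 and 1 with library size alone, against 0.431% and 0.377%). The disease effects of the cohorts differed for 2 of the 60, Plin3 (log2 difference −1.45, adjusted p = 0.0278) and Acss1 (−1.28, adjusted p = 0.0171), against 0.168% of all genes called lower, and with library size alone 3 were lower and 1 higher, against 0.181% and 2.11%. The tamoxifen effects differed for 1, Acot11 (1.02, adjusted p = 0.0462), against 1.05% called higher, and for 0 with library size alone, against 1.197%. That of Plin3 was lost without Bin1KO placebo mouse 2, Bin1 cohort WT mouse 7 or 8, Dnm2SL placebo mouse 2 or 4 or WT placebo mouse 2 or 3 (adjusted p from 0.0585 to 0.0792), that of Acss1 without Bin1 cohort WT mouse 7 or WT placebo mouse 3 (adjusted p = 0.05898 and 0.0535), and that of Acot11 in 23 of 28 fits without 1 mouse, without the low-count filter and with only the groups compared.

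Angptl4 encodes a secreted inhibitor of lipoprotein lipase. It was 1.21, 1.896, 2.69 and 2.904 in WT placebo, 8.48, 4.03, 13.1 and 7.005 in Dnm2SL placebo, 15.6, 24.2, 9.699 and 21.3 CPM in WT tamoxifen and 4.02, 7.095, 23.3 and 11.4 CPM in Dnm2SL tamoxifen mice. All 12 mice lay above the WT placebo mice. Angptl4 rose in Dnm2SL placebo mice (log2FC 1.92, SE 0.51, adjusted p = 0.0147), in WT mice on tamoxifen (log2FC 3.04, SE 0.52, adjusted p = 8.99e-04) and in treated Dnm2SL mice (log2FC 2.41, SE 0.51, adjusted p = 0.00326), the first not without the low-count filter (adjusted p = 0.0509). Its levels in the Bin1 cohort were 4.17, 8.07, 2.94 and 2.501 in WT, 17.2, 22.9, 6.84 and 29.7 CPM in Bin1KO placebo and 10.7, 16.4, 6.09 and 5.15 CPM in Bin1KO tamoxifen mice, with overlap and no call (log2FC 2.11, adjusted p = 0.0661), on tamoxifen (log2FC −0.99, adjusted p = 0.311).

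Prkaa1 encodes a catalytic subunit of AMPK, the kinase that senses low energy and inhibits the enzyme made by Acacb. It was 17.7, 19.4, 16.998 and 20.97 in WT placebo, 41.8, 39.3, 29.5 and 41.6 in Dnm2SL placebo, 19.9, 17.1, 21.99 and 17.3 CPM in WT tamoxifen and 24.9, 25.99, 21.8 and 23.95 CPM in Dnm2SL tamoxifen mice. The Dnm2SL placebo mice were above all others, and the Dnm2SL tamoxifen mice lay between them and the WT placebo mice. It rose in Dnm2SL placebo mice (log2FC 1.02, SE 0.12, adjusted p = 6.62e-05) and fell in Dnm2SL mice on tamoxifen (log2FC −0.65, SE 0.12, adjusted p = 0.00581), a call lost when only those groups were fitted (adjusted p = 0.0659). Prkaa1 in the Bin1 cohort was 17.98, 15.3, 14.7 and 13.8 in WT, 25.3, 26.1, 23.5 and 30.8 CPM in Bin1KO placebo and 19.5, 15.8, 12.6 and 19.5 CPM in Bin1KO tamoxifen mice. The Bin1KO placebo mice were above all others, with a rise against WT (log2FC 0.77, SE 0.15, adjusted p = 0.0175) and a fall on tamoxifen (log2FC −0.65, SE 0.15, adjusted p = 0.0282). The rise was lost without Bin1KO placebo mouse 4 or Bin1 cohort WT mouse 6, 7 or 8 (adjusted p from 0.0624 to 0.0752) and the fall without Bin1KO placebo mouse 1, 2 or 4 or Bin1KO tamoxifen mouse 3 (adjusted p from 0.0613 to 0.0845), with only the groups compared (adjusted p = 0.0824) and with these and replicate number as a block (adjusted p = 0.0664).

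Ppargc1a encodes a coactivator of mitochondrial genes, Plin3 a droplet coat protein, and Prkag3 a regulatory subunit of AMPK in fast muscle. Ppargc1a was 50.4, 62.5, 61.4 and 202 CPM in WT placebo and 34.8, 21.4, 35.7 and 32.7 CPM in Dnm2SL placebo mice. WT placebo mouse 4 was far above the rest, and the fall (log2FC −1.59, SE 0.48, adjusted p = 0.0279) was not called without Dnm2SL placebo mouse 2 or 4 or WT placebo mouse 4 (adjusted p = 0.0757, 0.0669 and 0.113) or without the low-count filter (adjusted p = 0.0993). Plin3 was 54.1, 59.6, 71.2 and 65.6 in WT placebo, 29.7, 20.6, 29.9 and 20.4 in Dnm2SL placebo, 50.8, 54.7, 71.6 and 64.4 CPM in WT tamoxifen and 28.9, 36.8, 30.6 and 42.8 CPM in Dnm2SL tamoxifen mice. Dnm2SL mice of either diet were below all WT mice, with a fall in Dnm2SL placebo mice (log2FC −1.31, SE 0.16, adjusted p = 9.92e-05) and no call for tamoxifen in WT mice (log2FC −0.05, adjusted p = 0.836). Prkag3 was 88.9, 126, 116 and 66.7 in WT placebo, 42.4, 39.95, 62.1 and 63.03 in WT tamoxifen, 146, 192, 146 and 107 CPM in Dnm2SL placebo and 108, 62.9, 58.9 and 73.2 CPM in Dnm2SL tamoxifen mice. It fell on tamoxifen in WT (log2FC −0.94, SE 0.24, adjusted p = 0.0107), without overlap, and in Dnm2SL mice (log2FC −0.96, SE 0.24, adjusted p = 0.0262), where tamoxifen mouse 1 passed placebo mouse 4. The fall in Dnm2SL mice was lost without Dnm2SL placebo mouse 2 or Dnm2SL tamoxifen mouse 2 or 3 (adjusted p = 0.0854, 0.0958 and 0.0992) and without the low-count filter, with only the groups compared and with replicate number as a block (adjusted p = 0.0614, 0.08905 and 0.0561).

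Acss1, the acetyl-CoA synthetase of mitochondria, was 23.8, 19.6, 19.3 and 21.9 in WT, 48.8, 50.2, 31.7 and 47.9 CPM in Bin1KO placebo and 46.8, 52.5, 33.7 and 48.7 CPM in Bin1KO tamoxifen mice. Both Bin1KO groups were above all WT mice, and it rose in Bin1KO placebo mice (log2FC 1.08, SE 0.16, adjusted p = 0.00602). It also rose in Dnm2SL mice on tamoxifen, from 31.6, 19.1, 24.3 and 27.6 CPM to 35.8, 37.5, 30.4 and 54.2 CPM, with overlap (log2FC 0.62, SE 0.17, adjusted p = 0.0404), a call lost in 9 of 16 fits without 1 mouse (adjusted p up to 0.121), and held without WT placebo mouse 1, 2 or 4, WT tamoxifen mouse 2 or 3, Dnm2SL placebo mouse 1 or Dnm2SL tamoxifen mouse 3. The low-count filter left out and only the groups compared also ended it (adjusted p = 0.0533 and 0.134).

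Dgat2, of the last step of triglyceride synthesis, was 34.6, 41.99, 56.8 and 49.5 CPM in WT placebo and 19.8, 20.8, 21.1 and 37.4 CPM in WT tamoxifen mice, with mouse 4 of the latter among the former (log2FC −0.88, SE 0.23, adjusted p = 0.0113). Agpat2, an acyltransferase of that synthesis, was 5.17, 3.79, 4.29 and 5.24 CPM in WT and 9.03, 10.5, 8.92 and 9.99 CPM in Bin1KO placebo mice, all higher (log2FC 1.04, SE 0.25, adjusted p = 0.0366). The call was lost in 7 of 12 fits without 1 mouse (adjusted p up to 0.129), and held without Bin1KO placebo mouse 3 or Bin1KO tamoxifen mouse 1, 2, 3 or 4. Acss2, the acetyl-CoA synthetase of the cytosol, was 58.4, 57.002, 56.02 and 47.2 CPM in Bin1KO placebo and 42.2, 42.4, 34.6 and 32.6 CPM in Bin1KO tamoxifen mice, all lower (log2FC −0.52, SE 0.12, adjusted p = 0.0291), a call lost without Bin1KO placebo mouse 1 or 2 or Bin1KO tamoxifen mouse 3 or 4 (adjusted p from 0.0774 to 0.08596), with only the groups compared (0.0777) and with these and replicate number as a block (0.0768).

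Acot11, a further thioesterase, was 20.4, 23.9, 19.4 and 16.4 CPM in Bin1KO placebo and 9.5004, 14.7, 8.19 and 7.71 CPM in Bin1KO tamoxifen mice, all lower (log2FC −0.99, SE 0.19, adjusted p = 0.0143). The call was lost with only the groups compared (adjusted p = 0.0503). Against WT placebo mice of the same cohort, the log2FC of Acot11 was −0.95 in Dnm2SL placebo, −0.96 in Dnm2SL tamoxifen and −0.92 in Bin1KO tamoxifen mice. It was also lower in healthy mice on tamoxifen. In the Dnm2 cohort it was 19.1, 24.0, 23.1 and 19.0 CPM in WT placebo and 11.1, 13.0, 13.2 and 9.63 CPM in WT tamoxifen mice, without overlap.

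The members were checked for sequence shared with other genes in GENCODE M21 on GRCm38. Exons of 3 members overlap a gene on the same strand. Cpt1b shares 81.4% of its exon bases with Gm44502, and Etfb 58.2% with Gm45233 and Mir7051 together. Gm44502 and Gm45233 were picked out after the values were seen and had 0 reads in all 28 mice. How far reads on both genes of a pair, which may count for neither, lower these levels was not tested. In 7 members more than 10% of the 50-base stretches of their exons occur in another gene. For Fabp3 the share is 29.2%, mainly in Fabp3-ps1, picked out after the values were seen, with at most 0.8004 CPM in any mouse. For Hadhb, at 47.6 ± 4.8004 CPM in WT placebo, it is 19.7%, mainly in Gm13910, also picked out after, at 5.83, 5.94, 7.75 and 2.75 CPM in WT placebo, 4.93, 4.08, 1.37 and 1.76 CPM in WT tamoxifen, 2.34, 1.82, 2.35 and 2.49 CPM in Dnm2SL placebo and 2.48, 1.75, 1.48 and 2.78 CPM in Dnm2SL tamoxifen mice. It fell in Dnm2SL placebo (log2FC −1.27, adjusted p = 0.0251) and treated Dnm2SL mice (log2FC −1.34, adjusted p = 0.0143), the former not without Dnm2SL placebo mouse 2 or WT placebo mouse 1, 2 or 3 (adjusted p from 0.0512 to 0.0808) or with library size alone (log2FC −0.98, adjusted p = 0.0542), the latter not without Dnm2SL tamoxifen mouse 3 (adjusted p = 0.0507), and was not called, with overlap, in WT mice on tamoxifen (log2FC −0.83, adjusted p = 0.102), where the log2FC of Hadhb was −0.62.

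Since many members fell together in the Dnm2 cohort, their promoters were searched, with windows of 250 bases before to 50 bases after the start of transcription from RefSeq on GRCm38.p6. Windows were found for 37 of 44 members, 44 windows among 32851 in all. The PPAR element was searched on both strands as 2 copies of AGGTCA in the same direction with 1 base between them. It was in 0 member windows and in 0.0396% of all windows, and the looser form with AGGNCA was in 0 member windows and 0.381% of all. TCAAGGTCA, the element of the estrogen-related receptors, was searched on both strands and was in 1 member window, that of Acsl6, and in 0.423% of all windows. A window without a match says nothing of the receptor. The Acsl6 window, chr11:54303574-54303873 on the plus strand, is shown with the match in capitals. It reads on the minus strand and begins at base 84.
Acsl6: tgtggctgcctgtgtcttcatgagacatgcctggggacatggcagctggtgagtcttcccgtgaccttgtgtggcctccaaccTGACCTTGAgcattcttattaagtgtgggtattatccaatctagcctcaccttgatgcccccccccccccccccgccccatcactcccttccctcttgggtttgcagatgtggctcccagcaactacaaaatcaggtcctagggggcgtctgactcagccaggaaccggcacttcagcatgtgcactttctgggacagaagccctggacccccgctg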

How the data were processed

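The authors deposited raw read counts per gene, 1 table per cohort with 55416 and 55359 genes, which were matched by Ensembl identifier. The Bin1 table also holds lines that are no genes, with 22.01 to 30.8% of its counts, which were left out. The submitters' notes name bcl2fastq 2.20.0.422, cutadapt 1.10, STAR 2.5.3, Bowtie 1.2.2 and HTSeq 0.6.1p1 with the build mm39 and a strand-specific kit, and state neither the part of each tool nor the annotation release. GENCODE M21 on GRCm38 gave only gene names, exon lengths and overlaps, and RefSeq on GRCm38.p6 the promoters.

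Each cohort was fitted with edgeR 4.0.16 in R 4.3.3 (TMM, filterByExpr, robust quasi-likelihood fit, 1 mean per group), and all 28 mice jointly for differences between cohorts. Tests were two-sided, p was adjusted by Benjamini-Hochberg over all genes tested, and a gene was called at an adjusted p under 0.05. CPM are counts per 1e6 of the TMM-scaled library, and log2 fold changes used a prior count of 2. The alternatives were DESeq2 1.42.0, RLE size factors, library size alone, no filter, a filter of more than 10 reads in 90% of mice, mitochondrial DNA genes left out, only the groups compared, replicate number as a block (in the Bin1 cohort with Bin1KO mice only), and each mouse left out. The code was tested on simulated data. Tables and figures were made with Python 3.11.15, pandas 2.3.3 and matplotlib 3.10.9.

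The members and lists were chosen with earlier results of these data known. Values of every mouse are given for the 5 called members with the largest change in each of 5 comparisons, and for Cd36, Lpl, Cpt1b, Acadm, Hadha, Ucp3 and Pnpla2 whatever their result. Values per mouse are also given for the 3 called further genes with the largest change. These cover all 7 groups for Angptl4 and Prkaa1, and only some groups for the other further genes. Those of Cpt1a were added after they were seen.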

Additional observations from a re-analysis of the deposited data

Results flagged for a closer look

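Each of 13 members was searched in 7 groups of 4 mice for a mouse whose gap to its nearest neighbour, as a share of the range of the group, passed Dixon's critical value. Of 91 groups 12 held such a mouse, and chance gives about 1 in 20 for a single group. The members were measured in the same mice, so the 91 are not independent. The share found can therefore not be weighed against chance.

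Dnm2SL placebo mouse 3 was high for Etfdh (174 CPM), WT placebo mouse 3 for Hadha (626 CPM), and WT tamoxifen mouse 1 and Bin1KO tamoxifen mouse 2 for Acsl1 (389 and 429 CPM). WT placebo mouse 1 was low for Acadl (475 CPM) and WT tamoxifen mouse 4 for Acadvl (329.6 CPM). Bin1KO placebo mouse 4 was low for Etfdh, Acadvl and Acadl (190.2, 523 and 381 CPM), and Bin1KO tamoxifen mouse 3 for Acadvl, Acadm and Acadl (448, 264 and 291 CPM).

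Differences between groups that passed a test of the difference itself were, as differences of log2 fold changes with edgeR adjusted p under 0.05, 0.70 for Etfdh and 1.11 for Lpl between the tamoxifen effects in Dnm2SL and WT mice. Between the disease effects of the Dnm2 and Bin1 cohorts they were −0.75 for Slc25a20, −0.89 for Etfdh, −0.72 for Acadm, −0.73 for Acadvl and −1.25 for Lpl. Between their tamoxifen effects in diseased mice the difference was 0.88 for Lpl.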

How the results depend on the processing

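Counts of members called are given here where an alternative moved them by more than 1.5 times. With DESeq2, 14 members were called in the interaction (2 by edgeR), 3 in Bin1KO against WT placebo mice (0), 7 for tamoxifen in Bin1KO mice (2), 1 in Bin1KO tamoxifen against WT mice (0) and 11 for the difference of disease effects (5). With library size alone the counts were 10 in Dnm2SL tamoxifen against WT placebo mice (4 higher, 6 lower), 0 in the interaction, 1 in Bin1KO against WT placebo mice, 9 for tamoxifen in Bin1KO mice and 3 for the difference of tamoxifen effects. Without the low-count filter they were 1 in the interaction, 4 for tamoxifen in Bin1KO mice, 1 in Bin1KO tamoxifen against WT mice and 0 for the difference of tamoxifen effects. With more than 10 reads in 90% of mice 1 was called in the interaction. With only the groups compared 5 were called in Bin1KO against WT placebo mice, 0 for tamoxifen in Bin1KO mice and 0 for the difference of tamoxifen effects. With the replicate block 0 were called in the interaction, and with the block and only the Bin1KO mice 1 for tamoxifen. The cause was not tested.

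Library size alone turned the direction of 3 calls in Dnm2SL tamoxifen against WT placebo mice, to log2 fold changes of 0.0583 for Echs1, 0.0726 for Hadh and 0.0107 for Cpt2. Of the 75 calls of members, 39 were made again with library size alone, 74 with RLE size factors, 75 with DESeq2, 66 without the filter and 71 with the other filter, as were 65 of 73 with only the groups compared, 62 of 67 with the replicate block and 0 of 2 with that block in Bin1KO mice alone, all in the same direction. Calls of markers were ended, in at least 1 comparison, by library size alone (Alas2, Fabp4, Myh2, Myh4, Myl3, Tek and Tnnt3), no filter (Adgre1, Alas2, Cd163, Cdh5, Cidea, Fabp4, Myh2, Myh4, Myh7, Myl2, Myl3 and Tek), the other filter (Myh2 and Tek), only the groups compared (Alas2, Cdh5, Cidea, Col1a1, Ibsp, Myh2, Myl2, Myl3, Plin1 and Tek) and the block (Fabp4, Myh2 and Tek).

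With each mouse left out in turn, the count ranged from 10 to 18 for Dnm2SL against WT placebo mice, 21 to 28 for tamoxifen in WT mice, 0 to 3 for tamoxifen in Dnm2SL mice, 14 to 25 for Dnm2SL tamoxifen against WT placebo mice, 0 to 4 for the interaction, 0 to 2 for Bin1KO against WT placebo mice, 0 to 7 for tamoxifen in Bin1KO mice, 0 to 1 for Bin1KO tamoxifen against WT mice, 2 to 6 for the difference of disease effects and 0 to 3 for that of tamoxifen effects. The share of all genes called also moved with the mouse left out, as given above for some of these fits. These ranges therefore do not describe the members alone. Of the 75 calls, 45 were made whichever mouse was left out.

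The correlation of mice with the same number, after group means were removed, ran from −0.32 to 0.33 in the Dnm2 cohort and over 0.1 in 9 of 24 pairs, against 22 of 72 pairs with other numbers.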
